A study of Homo sapiens with 12 samples.

Results

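NR3C1, the gene of the glucocorticoid receptor, and 8 genes that glucocorticoids induce in many cell types (FKBP5, TSC22D3, PER1, KLF9, SGK1, DUSP1, ERRFI1 and ZFP36) were followed in 2 ovarian cancer cell lines with and without malignant ascites. The genes were chosen by name, and all 9 were found among the 19251 genes listed for each library. CAOV3 is an established line of high grade serous ovarian cancer and TOV21G one of clear cell ovarian cancer, both labelled wild type. RNA-seq was run on 12 libraries, 3 for each of 4 groups: CAOV3 control, CAOV3 with ascites, TOV21G control and TOV21G with ascites. Both lines were seeded at 250000 cells per well in medium with 10% fetal bovine serum, and the controls were left untreated. The ascites groups received ovarian cancer ascites at 10% for 16 h, as 150 µL in 1.5 mL of medium. The labels do not say that the serum was stripped of steroids, nor that the controls received a vehicle or another fluid. Each tumour type is represented by 1 line, so line and tumour type cannot be told apart. Nothing in the labels says that the 3 libraries of a group came from separate cultures, so the p-values measure only the spread between these libraries, which may be technical.

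The glucocorticoid receptor is held in the cytoplasm by a chaperone complex until cortisol or a synthetic glucocorticoid binds it. It then moves to the nucleus and acts at glucocorticoid response elements, many of them far from the start site, and raises a set of early genes that is partly shared among tissues. FKBP5 and TSC22D3 belong to the most widely used readouts of this response, while DUSP1, ZFP36, SGK1 and ERRFI1 also answer to growth factor, stress or inflammatory signals. Cells convert cortisol and inactive cortisone into each other, and ascites is a body fluid in which steroids, cytokines and growth factors can all be present. The comparison therefore asks whether the lines show a steroid-type response when ascites is added.

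All 9 genes lie on GRCh38 with the following GENCODE 29 coordinates. NR3C1 (ENSG00000113580) spans chr5:143277931-143435512 on the minus strand. FKBP5 (ENSG00000096060) spans chr6:35573585-35728583, minus strand. TSC22D3 (ENSG00000157514) spans chrX:107713221-107777342, minus strand. PER1 (ENSG00000179094) spans chr17:8140472-8156506, minus strand. KLF9 (ENSG00000119138) spans chr9:70384597-70414624, minus strand. SGK1 (ENSG00000118515) spans chr6:134169246-134318112, minus strand. DUSP1 (ENSG00000120129) spans chr5:172768090-172771195, minus strand. ERRFI1 (ENSG00000116285) spans chr1:8004404-8026308, minus strand. ZFP36 (ENSG00000128016) spans chr19:39406813-39409412 on the plus strand. KLF9 and ZFP36 overlap no other annotated gene. The other 7 overlap at least 1, among them an antisense transcript at DUSP1 and at ERRFI1 and a protein-coding gene on the same strand at PER1. The sources used here do not say whether strand was used in counting, so reads of an overlapping partner cannot be told apart from those of these 7 genes.

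The promoters of the 9 genes were searched because the question is one of hormone response elements. RefSeq (GRCh38.p14) gives 21 start-site windows for them, each with 250 bases before and 50 after a start site. The full glucocorticoid response element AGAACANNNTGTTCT, searched on both strands like every motif here, was in 0 of the 21 windows, and in 0.00285% of 35116 windows over 27305 genes. A loosened form, GNACANNNTGTNC, was also in 0 of the 21, against 0.39% of all windows. The half-site AGAACA, which the full element contains, was in 2 windows, 1 of FKBP5 and 1 of SGK1, against 14.8% of all. The cyclic AMP response element TGACGTCA was in 1 window, that of DUSP1, against 1.85% of all. Its half-site TGACG, contained in the full form, was in 7 windows of NR3C1, TSC22D3 and DUSP1, against 24.6% of all. The E-box CACGTG, through which clock proteins bind, was in 3 windows, of FKBP5, PER1 and DUSP1, against 7.26% of all. The CArG box, through which serum response factor binds, was in 0 of the 21 windows and in 1.29% of all. A missing match says only that these letters are not in the window.

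4 of these windows are printed from 5′ to 3′ on the minus strand, which is the strand of each gene, to show which letters of hormone, cyclic AMP and clock elements lie at the start sites. The FKBP5 window (chr6:35728534-35728833) has the half-site AGAACA in capitals, at the start site itself. The TSC22D3 window (chrX:107717013-107717312) has 2 copies of TGACG in capitals. The PER1 window (chr17:8152355-8152654) has the E-box in capitals, and the DUSP1 window (chr5:172771146-172771445) has the cyclic AMP half-sites, the full cyclic AMP element that 2 of them form, and the E-box.
FKBP5: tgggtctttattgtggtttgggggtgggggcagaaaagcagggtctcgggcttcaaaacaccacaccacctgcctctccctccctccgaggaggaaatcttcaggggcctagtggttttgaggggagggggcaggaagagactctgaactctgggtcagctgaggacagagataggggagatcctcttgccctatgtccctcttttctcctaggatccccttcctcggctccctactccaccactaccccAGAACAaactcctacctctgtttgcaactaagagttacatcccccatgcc
TSC22D3: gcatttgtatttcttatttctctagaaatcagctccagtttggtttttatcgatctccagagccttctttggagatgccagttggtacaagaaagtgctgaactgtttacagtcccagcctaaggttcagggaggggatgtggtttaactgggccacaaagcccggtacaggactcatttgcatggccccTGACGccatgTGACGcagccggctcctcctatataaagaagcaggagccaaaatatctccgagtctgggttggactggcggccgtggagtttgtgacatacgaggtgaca
PER1: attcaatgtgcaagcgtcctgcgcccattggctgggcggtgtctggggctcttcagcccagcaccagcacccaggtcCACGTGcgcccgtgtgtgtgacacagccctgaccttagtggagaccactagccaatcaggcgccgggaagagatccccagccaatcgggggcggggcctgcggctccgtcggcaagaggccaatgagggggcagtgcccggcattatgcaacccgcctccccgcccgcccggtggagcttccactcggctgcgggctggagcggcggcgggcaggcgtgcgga
DUSP1: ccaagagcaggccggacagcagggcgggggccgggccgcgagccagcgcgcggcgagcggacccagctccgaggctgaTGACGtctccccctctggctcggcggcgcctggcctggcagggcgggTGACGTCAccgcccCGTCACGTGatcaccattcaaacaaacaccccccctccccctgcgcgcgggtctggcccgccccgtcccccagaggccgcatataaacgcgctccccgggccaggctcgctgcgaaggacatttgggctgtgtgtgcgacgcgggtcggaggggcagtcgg

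Values are normalised read counts, that is, whole reads per gene divided by a library's size factor, so 1 unit is close to 1 read. The libraries held 26697609 to 34491304 reads in listed genes, and each of the 9 genes had at least 315 reads in every CAOV3 library and at least 42 in every TOV21G library. Differences were tested with limma on log2(normalised count + 1) over 17616 genes, with Benjamini-Hochberg adjustment over all of them, with calls made below an adjusted p of 0.05. Folds and log2 differences are on this scale. Limma took 1 spread per gene from all 12 libraries, so the spread in each line enters the tests of both. In bulk RNA, fewer cells of a kind and less RNA per cell cannot be told apart. The epithelial marker EPCAM was present in both lines, with values from 342 to 839. CDH1, the gene of E-cadherin, was at 389 to 455 in CAOV3 controls and 266 to 281 with ascites (limma adjusted p = 0.438, edgeR 0.00415, DESeq2 2.16e-05), but at 6.29 to 17.3 in TOV21G. PAX8, a Muellerian marker, was at 18.2 to 25.6 in CAOV3. In TOV21G it was at 6797 to 7309 in controls and 8464 to 9342 with ascites, called higher by edgeR and DESeq2 but not by limma. WT1, of the same list, was at 2.15 to 8.18 in CAOV3 and 219 to 239 in TOV21G. MUC16, also of that list, was low in both lines, at 5.12 to 12.9 in CAOV3 and 0.83 to 9.84 in TOV21G. PAX8 and WT1 were thus higher in the clear cell line than in the serous line. The tumour types stated for the lines were not tested against these markers. Of 8 leukocyte markers, CD14 and LYZ were among the listed genes and the other 6 were not analysed here. Their summed value was 117 to 134 in CAOV3 controls and 101 to 125 with ascites, and 8.39 to 13.0 in TOV21G controls and 11.6 to 20.4 with ascites, with LYZ at 0 in all 6 TOV21G libraries. The 5 summed epithelial markers were higher with ascites in CAOV3, at 153330 to 162630 against 131720 to 132810, a sum carried by KRT8 and KRT18, while the estimates of CDH1 and KRT19 were below 0. The sum ran from 10412 to 11982 with ascites against 11027 to 12423 in TOV21G controls. The 5 listed fibroblast and mesothelial markers summed to 3825 to 4040 with ascites against 4247 to 4969 in CAOV3 controls, and to 11717 to 12236 against 13039 to 13560 in TOV21G. The part of these markers in the values of the 9 genes was not tested.

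None of the 9 genes passed the test for a change with ascites in either line. In CAOV3, 0 of 9 were called by limma, against 1.73% of all tested genes (0.636% higher and 1.1% lower). In TOV21G, 0 of 9 were called, against 0.409% of all (0.142% higher and 0.267% lower). edgeR and DESeq2 on the recovered whole reads also called 0 of 9 in each line. Before adjustment, 2 genes had a p under 0.05 in CAOV3, against 12.9% of all tested genes, and 2 in TOV21G, against 9.17%. The estimates pointed both ways: 5 above and 4 below 0 in CAOV3, with a median of 0.00, and 3 above and 6 below 0 in TOV21G, with a median of -0.04. Over all tested genes the medians were -0.00 and -0.02. With shares of calls this low among all genes, 0 of 9 does not set these genes apart from the rest.

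**Figure D1:**
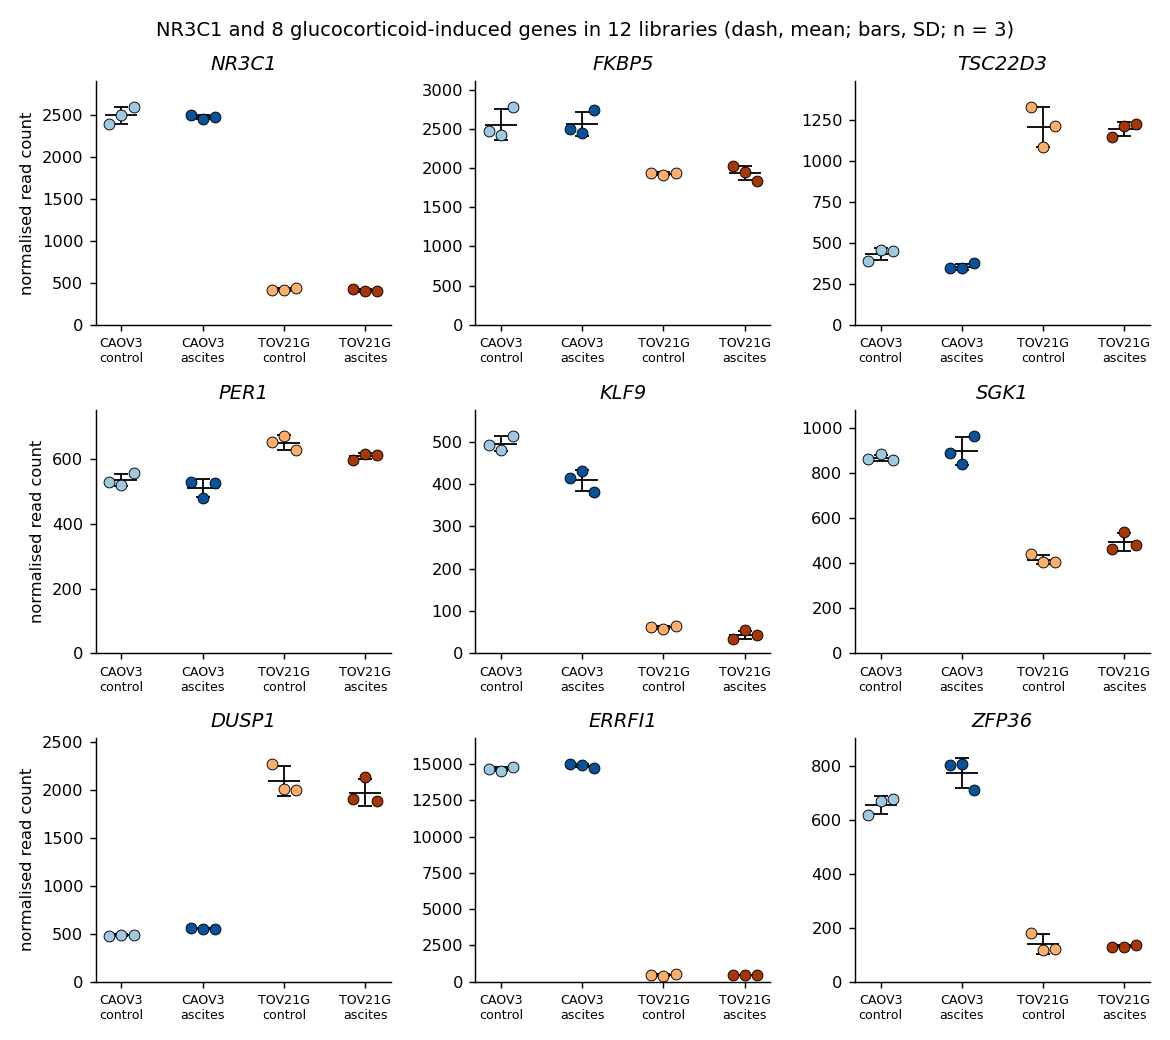
Normalised read count (vertical axis, linear, from 0) of each of the 9 genes in the 12 libraries. Points are single libraries, dashes group means and bars the SD (n = 3). The distance between the lines exceeds that between control and ascites for every gene, most of all for ERRFI1, at 14544 to 14995 in CAOV3 and 403 to 516 in TOV21G.

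NR3C1, the receptor itself, was at 2391, 2502 and 2593 in the CAOV3 controls and at 2499, 2449 and 2470 with ascites. The ascites values lay inside the range of the controls. The log2 difference was -0.01 (SE 0.048, 95% interval -0.12 to 0.09, limma adjusted p = 0.966). In TOV21G the controls held 414, 410 and 442 and the ascites libraries 428, 397 and 407. These groups overlapped too, with a difference of -0.04 (SE 0.048, interval -0.14 to 0.06, limma adjusted p = 0.821). The interval in each line leaves room for a change of the receptor transcript of at most 0.14 log2 units either way. NR3C1 mRNA falls in many cells under lasting glucocorticoid exposure, so it is both the receptor and a readout.

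FKBP5 encodes a co-chaperone that binds the receptor complex and lowers its affinity for hormone, and its induction by glucocorticoid is among the most sensitive known. Its value was 2468, 2425 and 2779 in CAOV3 controls and 2503, 2446 and 2741 with ascites. In each group replicate 3 was the highest, and the groups overlapped almost fully. The difference was 0.00 (SE 0.058, interval -0.12 to 0.13, limma adjusted p = 1). In TOV21G the controls were at 1940, 1910 and 1942 and the ascites libraries at 2022, 1950 and 1840, on both sides of the controls. The difference was again 0.00 (SE 0.058, interval -0.12 to 0.13, limma adjusted p = 1). The upper bound corresponds to a fold of 1.09 in each line.

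TSC22D3 encodes GILZ, a leucine zipper protein that restrains NF-κB and AP-1 and mediates part of the anti-inflammatory action of glucocorticoids. It was at 390, 457 and 447 in CAOV3 controls and at 345, 344 and 375 with ascites. All 3 ascites values lay under all 3 controls, the direction opposite to induction. The difference was -0.28 (SE 0.079, interval -0.45 to -0.11), with an unadjusted p of 0.00354 and a limma adjusted p of 0.116. The adjusted p was 0.0714 with edgeR and 0.058 with DESeq2, so no tool called it. For TOV21G the controls held 1327, 1082 and 1214 and the ascites libraries 1145, 1211 and 1222. The groups overlapped there, with a difference of -0.01 (interval -0.18 to 0.16, limma adjusted p = 0.992).

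PER1 is a repressor of the circadian clock whose gene is directly induced by the receptor. Its value was 529, 521 and 558 in CAOV3 controls and 528, 481 and 527 with ascites, with overlap. The difference was -0.07 (interval -0.19 to 0.05, limma adjusted p = 0.674). In TOV21G it was 653, 673 and 628 in controls and 598, 618 and 614 with ascites, lower in all 3, opposite to induction. The difference was -0.09 (interval -0.21 to 0.03, limma adjusted p = 0.626).

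KLF9, a zinc finger transcription factor induced by glucocorticoid and thyroid hormone, had its lower values with ascites in both lines. CAOV3 controls were at 493, 480 and 515 and ascites libraries at 414, 430 and 382, without overlap. The difference was -0.28 (SE 0.135, interval -0.57 to 0.01, unadjusted p = 0.0591, limma adjusted p = 0.413). The adjusted p was 0.0873 with edgeR, 0.129 with DESeq2 and 0.0814 with limma on only the CAOV3 groups. TOV21G controls were at 62.9, 57.7 and 64.6 and ascites libraries at 34.8, 54.0 and 42.1, again without overlap and with the widest relative spread of the 9 genes in that group. The difference was -0.51 (SE 0.135, interval -0.80 to -0.22, unadjusted p = 0.00227, limma adjusted p = 0.185), a 1.43-fold lower value. Without TOV21G ascites replicate 2, the highest of its group, the difference was -0.67 and was called (limma adjusted p = 0.0191). Leaving out any other single library did not lead to a call. In both lines these differences run opposite to induction.

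SGK1 encodes a kinase that controls sodium channels and cell survival, and it is induced by glucocorticoids, mineralocorticoids and serum. CAOV3 controls were at 863, 882 and 857 and ascites libraries at 887, 839 and 965, with overlap on both sides. The difference was 0.05 (interval -0.10 to 0.19, limma adjusted p = 0.855). Controls of TOV21G held 439, 405 and 403 and the ascites libraries 462, 538 and 478, all 3 above the controls, the direction of induction. The difference was 0.24 (SE 0.068, interval 0.10 to 0.39, unadjusted p = 0.00354, limma adjusted p = 0.237), or 1.18-fold. edgeR gave an adjusted p of 0.0908 and DESeq2 0.164.

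DUSP1 encodes the phosphatase MKP-1, which switches off p38, JNK and ERK, and it answers to glucocorticoid, growth factors and stress. CAOV3 controls were at 471, 490 and 490 and ascites libraries at 563, 551 and 547, each above every control, the direction of induction. The difference was 0.20 (SE 0.059, interval 0.07 to 0.32), with an unadjusted p of 0.00583 and a limma adjusted p of 0.152. The adjusted p was 0.11 with edgeR and 0.209 with DESeq2. Limma gave 0.0512 with only the CAOV3 groups compared and 0.064 with TMM scaling, so none of these called it. In TOV21G the controls held 2265, 2006 and 1995 and the ascites libraries 1897, 2127 and 1882. These overlapped, with a difference of -0.08 (interval -0.21 to 0.04, limma adjusted p = 0.668).

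ERRFI1 encodes MIG6, an inhibitor of the EGF receptor that is induced by EGF signalling as well as by glucocorticoid. CAOV3 held 14673, 14544 and 14822 in controls and 14995, 14949 and 14744 with ascites, overlapping at the top of the controls. The difference was 0.02 (interval -0.13 to 0.18, limma adjusted p = 0.960). TOV21G controls were at 482, 403 and 516 and the ascites libraries at 480, 481 and 435, all inside the range of the controls. The difference was 0.00 (interval -0.15 to 0.15, limma adjusted p = 1).

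ZFP36 encodes tristetraprolin, which binds AU-rich elements and speeds the decay of cytokine mRNAs. CAOV3 controls were at 619, 671 and 680 and ascites libraries at 803, 808 and 710, without overlap and in the direction of induction. The difference was 0.24 (SE 0.132, interval -0.05 to 0.52, unadjusted p = 0.0985, limma adjusted p = 0.497). The adjusted p was 0.21 with edgeR, 0.236 with DESeq2 and 0.149 with limma on only the CAOV3 groups. TOV21G controls held 181, 116 and 123 and the ascites libraries 129, 130 and 136. Control replicate 1 was far above the other values, and the difference was -0.06 (interval -0.35 to 0.23, limma adjusted p = 0.924).

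Counted by overlap alone, CAOV3 had 2 genes higher without overlap (DUSP1 and ZFP36) and 2 lower (TSC22D3 and KLF9), against 11.4% and 12.8% of all tested genes. TOV21G had 1 higher (SGK1) and 2 lower (PER1 and KLF9), against 4.16% and 6.99%. KLF9 was lower without overlap in both lines, and the share of all tested genes with such a pattern was not counted.

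**Figure D2:**
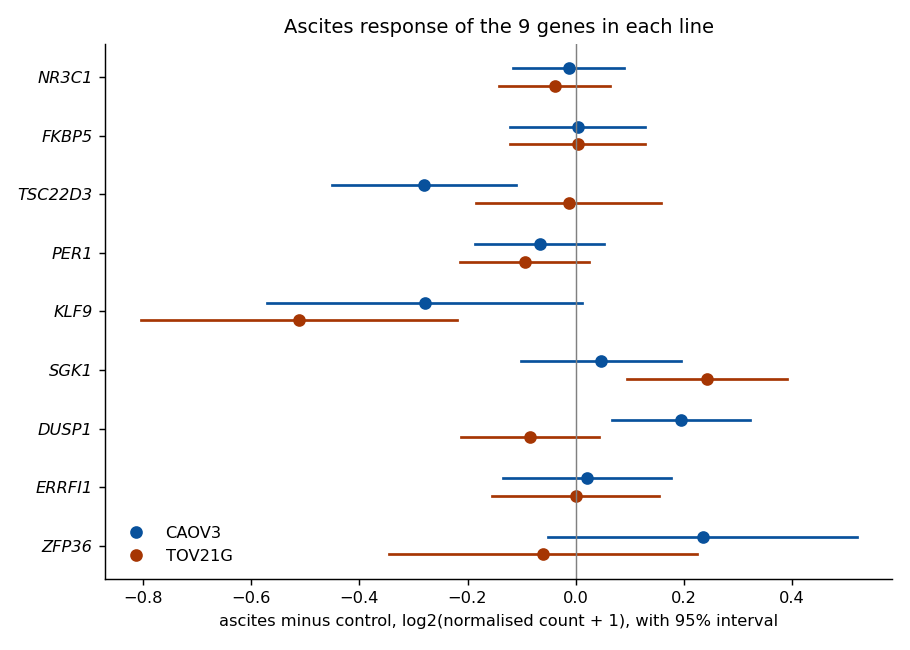
Difference between ascites and control in log2(normalised count + 1) (horizontal axis) for the 9 genes in CAOV3 (blue) and TOV21G (brown). Points are limma estimates and lines 95% intervals before adjustment over genes. FKBP5 and NR3C1 sit at 0.00 to -0.04 in both lines, and the lowest estimate is KLF9 in TOV21G at -0.51.

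The response was also compared between the lines, as the TOV21G difference minus the CAOV3 difference. Limma called 0 of 9, against 0.545% of all tested genes, and edgeR and DESeq2 called 0 as well. Before adjustment 2 genes had a p under 0.05, against 11.9% of all. DUSP1 had a difference between responses of -0.28 (SE 0.084, interval -0.46 to -0.10, unadjusted p = 0.00532, limma adjusted p = 0.236). TSC22D3 had one of 0.27 (SE 0.112, interval 0.03 to 0.51, unadjusted p = 0.0322, limma adjusted p = 0.387). FKBP5 had one of -0.00 (interval -0.18 to 0.18, limma adjusted p = 0.999). The intervals of ZFP36 (-0.70 to 0.11) and KLF9 (-0.65 to 0.18) were the widest, so their responses in the lines were compared least precisely.

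At baseline the control libraries of the lines differed in all 9 genes, 3 higher and 6 lower in TOV21G. Limma called 82.2% of all tested genes in this comparison, 40.8% higher and 41.4% lower, so calls in all 9 are near the background of genes in general. All 9 calls held in each of the 12 fits that left out 1 library.

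Of the genes closest to the receptor, NR3C1 was 5.90-fold lower in TOV21G, at 422 ± 17.6 (SD, n = 3) against 2495 ± 101 in CAOV3 (log2 difference -2.56, SE 0.048, limma adjusted p = 1.42e-14). FKBP5 differed far less, at 1931 ± 18.04 in TOV21G against 2557 ± 193 in CAOV3 (SD, n = 3), a 1.32-fold lower value (log2 difference -0.40, SE 0.058, limma adjusted p = 2e-05). The log2 gap between the lines was thus smaller for FKBP5 than for the receptor. TSC22D3 went the other way and was 2.79-fold higher in TOV21G, at 1208 ± 123 against 432 ± 36.0 (SD, n = 3, log2 difference 1.48, limma adjusted p = 5.58e-10).

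Of the other transcription regulators, PER1 was 1.21-fold higher in TOV21G (log2 difference 0.28, interval 0.16 to 0.40, limma adjusted p = 0.000344). KLF9 was 7.92-fold lower there, at 61.7 ± 3.61 against 496 ± 17.7 (SD, n = 3, log2 difference -2.99, limma adjusted p = 9.56e-11). Among the signalling genes, SGK1 was 2.09-fold lower in TOV21G (log2 difference -1.06, limma adjusted p = 4.27e-09). DUSP1 was 4.30-fold higher, at 2089 ± 153 against 484 ± 11.1 (SD, n = 3, limma adjusted p = 6.88e-13). ERRFI1 showed the widest gap of the 9, 31.5-fold lower in TOV21G, at 467 ± 58.2 against 14680 ± 139 (SD, n = 3, log2 difference -4.98, limma adjusted p = 1.49e-15). ZFP36 was 4.75-fold lower, at 140 ± 35.6 against 657 ± 33.2 (SD, n = 3, log2 difference -2.25, limma adjusted p = 1.58e-09). Genes of negative feedback on MAP kinase and growth factor signalling stood on both sides, DUSP1 higher and ERRFI1 lower.

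Ordering the 4 groups by mean, TOV21G and CAOV3 never interleaved for any of the 9 genes, and the libraries of the lines did not overlap. The share of all tested genes with this separation was not counted. Limma called 82.2% of them between the controls, so separate lines do not set these 9 genes apart. For NR3C1, FKBP5 and ERRFI1 the control and ascites groups next to each other in that order overlapped in both lines. The gap from the highest to the lowest group mean was 1.27-fold for PER1, 1.33-fold for FKBP5 and 32.0-fold for ERRFI1.

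Levels between genes were compared per kilobase of merged GENCODE 29 exons. In CAOV3 controls ERRFI1 led with 3507 normalised counts per kb, followed by ZFP36 at 327, NR3C1 at 272, FKBP5 at 241 and DUSP1 at 239.6. KLF9 at 95.8, TSC22D3 at 90.6, SGK1 at 86.8 and PER1 at 76.5 normalised counts per kb came after. In TOV21G controls DUSP1 led with 1034 per kb, followed by TSC22D3 at 253, FKBP5 at 182, ERRFI1 at 112 and PER1 at 93.0. ZFP36 at 69.7, NR3C1 at 46.0, SGK1 at 41.6 and KLF9 at 11.9 per kb closed the order. The receptor was thus the third of the 9 in CAOV3 and the seventh in TOV21G. FKBP5 and DUSP1 in CAOV3 lay closer together than their SDs of 18.2 and 5.50 per kb.

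**Figure D3:**
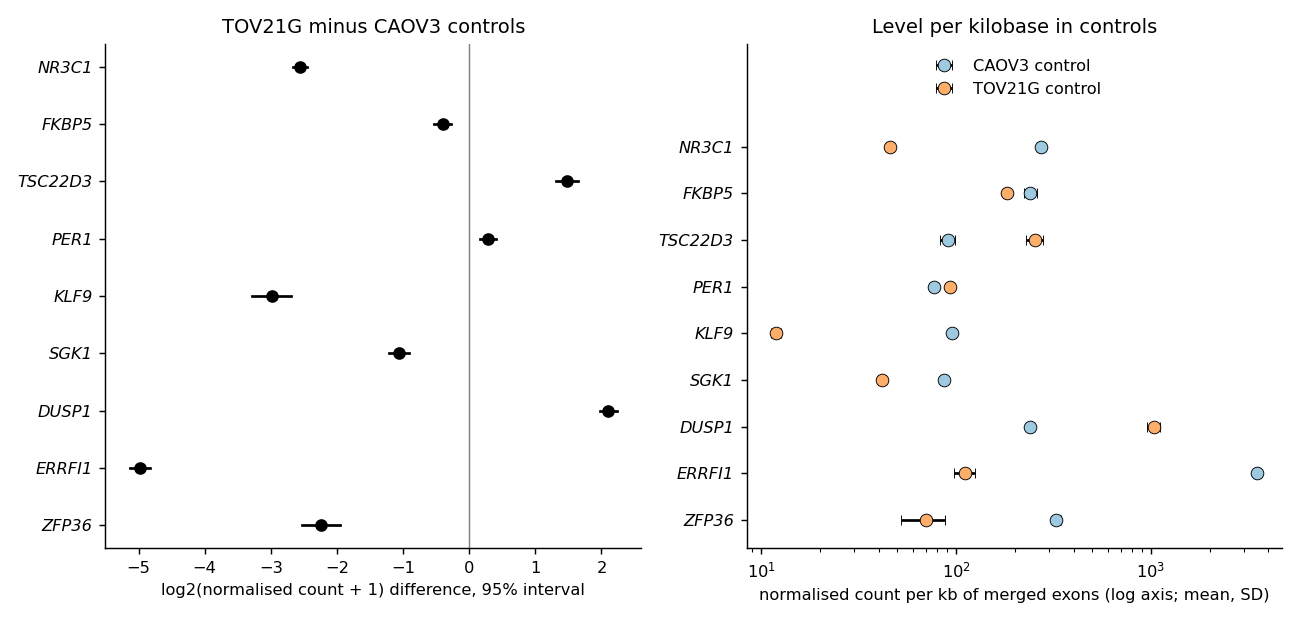
Left, TOV21G minus CAOV3 controls in log2(normalised count + 1) with 95% intervals; right, normalised count per kb of merged exons on a log axis, mean and SD of 3 controls per line. ERRFI1 lies furthest left at -4.98 and DUSP1 furthest right at 2.10, while FKBP5 and PER1 lie nearest 0.

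Further genes of the pathway were read from lists of glucocorticoid-induced genes, receptor chaperones, cofactors and steroid handling genes, inflammatory genes that glucocorticoid lowers, immediate early and ERK feedback genes, and clock genes. Limma's counts of calls below are to be read against its shares over all tested genes. These were 0.636% higher and 1.1% lower in CAOV3 and 0.142% and 0.267% in TOV21G. In either direction limma called 305 genes in CAOV3 and 72 in TOV21G. The other tools called more: edgeR 511 in CAOV3 and 114 in TOV21G, and DESeq2 507 and 150. Of 19 further induced genes, 18 were tested and ZBTB16 was not analysed here. In CAOV3 limma called 3 higher and 1 lower with ascites, and the median of the 18 was -0.02 against -0.00 over all. edgeR and DESeq2 called the same 4, and limma with TMM scaling also called BIRC3. ANGPTL4, an inhibitor of lipoprotein lipase that PPAR ligands also induce, went from 847, 776 and 787 to 1160, 1113 and 1123 (log2 difference 0.50, limma adjusted p = 0.000509). CEBPD, a transcription factor that interleukin-6 also induces, went from a range of 89.7 to 109 in controls to one of 159 to 171 with ascites (0.71, limma adjusted p = 0.00063). MAP3K6, a stress kinase, rose by 0.28 (limma adjusted p = 0.0137, 0.0586 without CAOV3 ascites replicate 2 and 0.0998 with a replicate block). SCNN1A, the α subunit of the epithelial sodium channel and a classic corticosteroid target, fell from 413, 393 and 443 to 316, 304 and 332 (-0.39, limma adjusted p = 0.00484). Induced genes were thus called in both directions.

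In TOV21G limma called 2 of the 18 higher and 0 lower, and the median was -0.00 against -0.02 over all. BIRC3, an inhibitor of apoptosis that NF-κB also induces, went from 3159, 3109 and 3122 to 4486, 4832 and 4456 (log2 difference 0.55, limma adjusted p = 0.000493). TNFAIP3, the gene of the NF-κB inhibitor A20 and itself an NF-κB target, rose by 0.58 (limma adjusted p = 0.0261, 0.116 without TOV21G control replicate 3 and 0.176 with a replicate block). NFKBIA, the gene of the NF-κB inhibitor IκBα, was at 3236, 2954 and 3111 in controls and 3550, 3831 and 3417 with ascites, a difference of 0.21 that limma did not call (adjusted p = 0.157). It was called by edgeR (adjusted p = 0.0101), by DESeq2 (0.0139) and by limma with TMM scaling (0.0286). Of the 6 induced genes called in either line, ANGPTL4 and SCNN1A also passed limma's test of the difference between the lines. edgeR and DESeq2 called CEBPD, BIRC3 and TNFAIP3 in that test as well, and MAP3K6 was called by none of the 3 tools.

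Of 19 chaperones, cofactors and genes of steroid handling, 16 were tested and the others were not analysed here. In CAOV3 limma called 0 higher and 1 lower: H6PD, which supplies NADPH to the enzyme that makes cortisol from cortisone, went from 1105, 1064 and 1101 to 859, 793 and 861 (log2 difference -0.38, limma adjusted p = 0.000509). HSD11B1, the gene of that enzyme, was not among the listed genes. In CAOV3 edgeR called H6PD alone, and DESeq2 called H6PD and the receptor coactivator NCOA2 lower. NCOA2 went from 2669, 2654 and 2660 to 2327, 2389 and 2294. In TOV21G, 0 of 16 were called by limma, edgeR or DESeq2 and 0 had an unadjusted limma p under 0.05. The medians of the 16 were -0.06 in CAOV3 and -0.02 in TOV21G. Of 10 inflammatory genes that glucocorticoid lowers, 8 were tested and IL1A and IL1B were not analysed here. ICAM1, a leukocyte adhesion molecule, rose in CAOV3 from 57.9, 49.5 and 45.5 to 131, 101 and 117 (1.17, limma adjusted p = 0.000109), the direction opposite to that under glucocorticoid. In CAOV3 the estimates were above 0 for 7 of the 8, with a median of 0.28. Among these, IL6 was at 0 to 2.19 and CCL2 at 0 to 6.56 over the CAOV3 libraries, where 1 unit is close to 1 read. edgeR and DESeq2 also called MMP1, a collagenase, lower there, and edgeR called IL11, a cytokine, higher. The fall of MMP1 had the direction seen under glucocorticoid, and the rise of IL11 the opposite one. In TOV21G limma called 0 of 8, 4 had an unadjusted p under 0.05, and the median was 0.51. CSF2 was at 0 to 0.88 in that line, PTGS2 at 0 to 1.66 and MMP1 at 0 in every library. The estimates of these genes thus rest on almost no reads. edgeR and DESeq2 called 3 of the 8 higher there. The cytokine IL6 went from 572, 505 and 495 to 827, 839 and 855 (limma adjusted p = 0.545, edgeR 0.000135, DESeq2 1.05e-10). Limma's spread for IL6 also held its CAOV3 values of 0 to 2.19, and their part in the limma p was not tested. The chemokine CXCL8 went from 178, 166 and 175 to 256, 303 and 319 (limma adjusted p = 0.150, edgeR 0.00118, DESeq2 5.1e-05). ICAM1 went from 1674, 1514 and 1447 to 2025, 2281 and 1906 (limma adjusted p = 0.186, edgeR 0.00104, DESeq2 4.09e-05).

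Of 14 immediate early and ERK feedback genes, JUNB, an AP-1 subunit, rose in CAOV3 (log2 difference 0.46, limma adjusted p = 0.00318). SPRY4, an inhibitor of receptor tyrosine kinase signalling, fell there by 0.21 (limma adjusted p = 0.0266, and 0.114 without CAOV3 ascites replicate 3). Of 13 clock genes, BHLHE40, a clock repressor, rose in CAOV3 by 0.24 (limma adjusted p = 0.0394, and 0.166 without CAOV3 ascites replicate 3). DBP, a transcription factor of the clock output, fell there by 0.66 (limma adjusted p = 0.0332, and 0.111 without CAOV3 control replicate 1). In TOV21G limma called 0 of the 14 and 0 of the 13, with 4 and 2 at an unadjusted p under 0.05. edgeR and DESeq2 called IER2, an immediate early gene, lower in TOV21G and no other of these genes. Genes named here because another tool called them were chosen after their values were seen. The medians were 0.10 and -0.09 in CAOV3 and 0.00 and -0.08 in TOV21G. PER1 stood with the clock genes that were not called in either line, and DUSP1 with the feedback genes that were not.

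**Figure D4:**
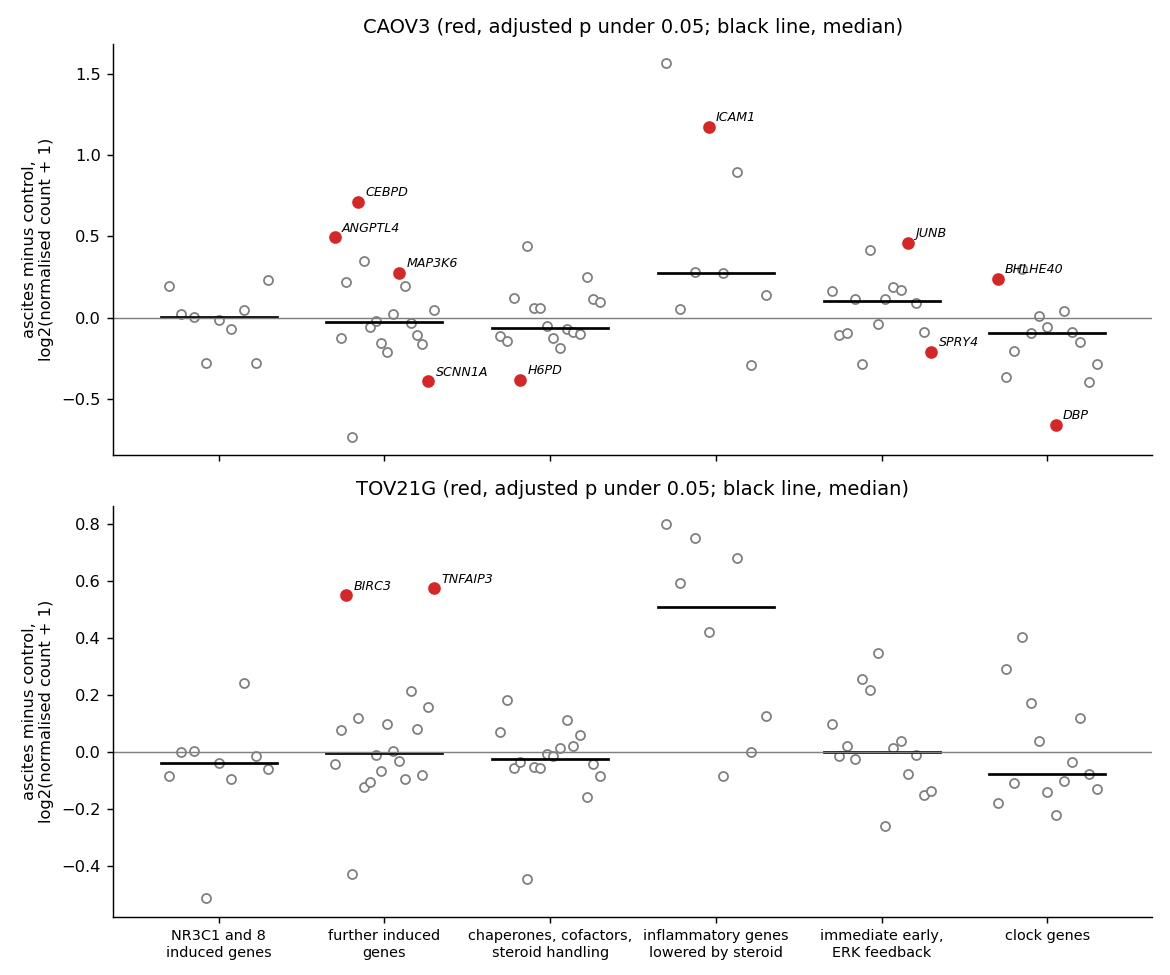
Difference between ascites and control in log2(normalised count + 1) (vertical axis) for every tested gene of the 6 lists, in CAOV3 (top) and TOV21G (bottom). Red points passed an adjusted p under 0.05, open points did not, and black lines are medians. The 9 genes at the left hold no red point in either line, while ICAM1 in CAOV3 is the highest red point at 1.17.

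At baseline the further induced genes were mostly higher in TOV21G, the line with less NR3C1: 15 of 18 were called higher and 3 lower by limma, against 40.8% and 41.4% of all tested genes, with a median of 1.47 against -0.02 over all. Calls in all 18 are near the 82.2% of all genes that were called. The 9 genes themselves had a median of -1.06 with 3 higher and 6 lower. The lists were chosen by name and are described by counts alone. With a replicate block, limma no longer called MAP3K6, SPRY4, BHLHE40 and DBP in CAOV3 or TNFAIP3 in TOV21G.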

How the data were processed

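The deposited values are normalised signal, 1 column per library. Per the submitters' processing notes, Trim Galore, cutadapt, STAR, HTSeq and DESeq were used. Versions, genome build, annotation and strand setting are not given in the sources used here. All deposited values were whole multiples of 1 read's worth (100% of values, within 5.41e-05 reads), and size factors recomputed from those reads with DESeq2 differed by at most 2.9e-06. Of 19251 identifiers, 19087 took a symbol from a gene name table, 136 from GENCODE 29 and 28 had none.

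Genes with a value of at least 10 in at least 3 libraries (17616) were tested with limma 3.58.1 in R 4.3.3 (trend, 1 mean per group, all 12 libraries, two-sided) on log2(value + 1). edgeR 4.0.16 and DESeq2 1.42.0 on the reads, TMM scaling, other pseudocounts and filters, the compared groups alone, a replicate block and leaving out each library were alternatives. Scripts were tested on simulated data. Replicates differed by more than counting noise (chi-square per degree of freedom 1.81 to 22.6 over 12 pairs).

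The 9 genes and the lists were chosen with earlier results of these data known. All 9 are described, and from each list up to 4 genes called by limma in a line are named. Some genes called only by another tool or setting are named as well. Promoters come from RefSeq.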

Additional observations from a re-analysis of the deposited data

Results flagged for a closer look

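For 5 genes of the companion lists the response to ascites differed between the lines by limma's test of the difference itself, given here as TOV21G minus CAOV3 on the log2 scale. ANGPTL4 rose in CAOV3, and its difference between responses was -0.54 (SE 0.081, adjusted p = 0.0103), called in all 12 fits without 1 library. SCNN1A, which fell in CAOV3, had a difference of 0.55 (SE 0.087, adjusted p = 0.015), and 0.0539 was its adjusted p without CAOV3 ascites replicate 1. H6PD, which fell in CAOV3, had a difference of 0.35 (adjusted p = 0.0264), called in 4 of 12 such fits. JUNB had a difference of -0.54 (adjusted p = 0.0268) and BHLHE40 one of -0.42 (adjusted p = 0.0268), each called in 3 of 12. With a replicate block the adjusted p was 0.131 for ANGPTL4, 0.0941 for SCNN1A, 0.207 for H6PD, 0.235 for JUNB and 0.204 for BHLHE40. None of the 9 genes of the glucocorticoid response met this test.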

How the results depend on the processing

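In all alternatives run, the 9 genes gave 0 calls of 189 fits for ascites in CAOV3, 1 of 189 in TOV21G (KLF9), 0 of 180 for the difference between lines and 189 of 189 at baseline. Leaving out 1 library gave 0 to 1 calls among the 9 in TOV21G. Calls among all tested genes moved more: in CAOV3 to 511 with edgeR and 507 with DESeq2, and in TOV21G to 114 with edgeR, 150 with DESeq2 and 8 with only the groups compared. For the difference between lines they were 151 with TMM scaling, 148 with edgeR and 212 with DESeq2. Leaving out 1 library gave 162 to 345 calls in CAOV3, 24 to 137 in TOV21G, 35 to 147 for the difference and 13992 to 14539 at baseline. With the replicate block the counts were 116, 13 and 9, and no call among the 9 genes changed. Same-numbered libraries did not deviate together (correlations -0.332 to 0.0193), so the numbers were not taken to pair them. Between TOV21G libraries of different number the correlations ran from -0.282 (control 1 with ascites 3) to 0.352 (control 1 with ascites 2). In CAOV3 they ran from -0.0544 to 0.0389. The source of this shared variation in TOV21G was not tested. Estimates near 0 changed sign. In TOV21G, TSC22D3 was 0.013 with TMM scaling and 0.0099 with edgeR, and ERRFI1 -0.0076 with DESeq2. For the difference, NR3C1 was 0.0013 with TMM scaling and 0.0010 with edgeR, FKBP5 0.027, 0.029 and 0.0048 with TMM scaling, edgeR and DESeq2, PER1 0.00031 with edgeR and ERRFI1 0.0063 with TMM scaling. Without 1 library the ranges in CAOV3 were -0.043 to 0.015 for NR3C1, -0.045 to 0.065 for FKBP5, -0.0069 to 0.093 for SGK1 and -0.028 to 0.193 for TNFAIP3. In TOV21G they were -0.028 to 0.040 for FKBP5, -0.090 to 0.057 for TSC22D3, -0.103 to 0.076 for ERRFI1 and -0.178 to 0.138 for ZFP36. For the difference they were -0.056 to 0.0081 for NR3C1, -0.062 to 0.049 for FKBP5 and -0.124 to 0.055 for ERRFI1, and at baseline -0.021 to 0.088 for JUNB. The cause of these shifts was not tested. With 3 libraries a group, KLF9 and ZFP36, the 2 lowest of the 9 in TOV21G, had the widest intervals.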

Other observations

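The genes whose values followed NR3C1 and FKBP5 most closely across the 12 libraries, after each line's own mean was subtracted and among 10284 genes with a mean of at least 100 in each line, are given as a description. For NR3C1 they were KLHDC10 (Pearson r = 0.872), CLEC16A (0.858) and IPO8 (0.828). For FKBP5 they were CDK17 (0.909), IFNAR1 (0.895) and MAP4K4 (0.881). The points share libraries and size factors. KLF9, with a mean under 100 in TOV21G, was not ranked. None of the other induced genes was among the 3 closest to NR3C1 or to FKBP5. With 3 places among 10284 genes, this does not say whether they followed the receptor.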
